A study of Mus musculus with 6 samples.

Results

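*Cbx2*, *Cbx6*, *Cbx7* and *Cbx8*, which encode chromobox proteins of Polycomb, and *Phc1*, *Phc2* and *Phc3*, which encode the polyhomeotic proteins, were followed in neural stem cells (NSC) with and without a *Bmi1* transgene. These 7 genes, out of 50686 identifiers counted, were chosen by name and not by any measured value. Their symbols were mapped to identifiers with GENCODE vM21. NSC were wild-type cultures from the subventricular zone of E16.5 mouse embryos. NSC Bmi1Over came from *STOPFloxBmi1;NestinCre* embryos of the same age, in which a Cre driven by *Nestin*, a gene of neural progenitors, removes a stop cassette and so switches on the *Bmi1* transgene. Whether the sequenced cells grew as neurospheres or as adherent cells is not given in the sources used here. RNASeq was analysed for 2 cultures of each group, and H3K27me3 ChIPSeq for 1 library of each. The glioma-initiating cells of the study were not analysed here.

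Canonical Polycomb repressive complex 1 (PRC1) is built around a RING protein and a PCGF protein, such as Bmi1. The Cbx subunit reads H3K27me3, the mark written by PRC2, with a chromodomain at its N terminus, and holds on to the RING protein with its C terminus. The Phc subunit carries a SAM domain that chains complexes together and helps to gather Polycomb targets into clusters. A single PRC1 complex holds 1 Cbx and 1 Phc protein, so the paralogs are alternatives to each other.

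Between 18112100 and 61353076 reads were counted on genes per library. *Bmi1* was counted at 133 and 124 CPM (reads relative to the library's total, scaled by the trimmed mean of M-values, TMM) in NSC and at 119 and 113 CPM in the libraries labelled NSC Bmi1Over. Reads on the mouse *Bmi1* gene were thus not higher in the latter, and every direction below rests on the labels. The neural stem cell markers were all counted in every library, from 2.27 to 3.56 TPM (the level per length) for *Prom1* up to 2433 to 4528 TPM for *Fabp7*, and had a summed level of 7758 to 7903 TPM in NSC and 5500 to 6270 TPM in NSC Bmi1Over over 10 genes. The sums were 3869 to 4027 and 2912 to 3445 TPM for the oligodendrocyte lineage, 272 to 290 and 243 to 253 TPM for neurons, and 197 to 238 and 160 to 170 TPM for astrocytes. Microglial, endothelial, mesenchymal and erythroid markers summed to at most 3.90 TPM each in any library, and 4 of 5 erythroid markers and 1 of 5 endothelial ones were at 0 in all libraries. TPM is not scaled by TMM. After TMM scaling the median log2 fold change of the tested markers was -0.17 for neural stem cells, 0.18 for the oligodendrocyte lineage, -0.07 for neurons and -0.02 for astrocytes. Of the 53 markers, edgeR and DESeq2 both called the neuronal *Syt1* higher in NSC Bmi1Over, with means of 18.2 and 81.2 CPM, and the astrocytic *Aldh1l1* lower, with means of 108 and 59.6 CPM. DESeq2 alone also called the neural stem cell marker *Slc1a3*, with a log2 fold change of 0.47. Their part in the values of the *Cbx* and *Phc* genes was not tested. In such bulk libraries, fewer cells of a type and less RNA per cell cannot be told apart.

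All 7 genes were expressed in every library and passed the filter on low counts. Their levels were compared per length and within libraries, and the highest mean in NSC was 14.7 times the lowest. The span was narrowest in NSC Bmi1Over replicate 2, from 9.05 TPM to 82.5 TPM. *Phc2* was the most abundant, at 106 ± 0.525 TPM in NSC (SD, n = 2) and 83.3 ± 1.09 TPM in NSC Bmi1Over. More than 87% of the tested genes had a lower level in any library. *Cbx6* and *Phc1* came next and did not differ beyond their spread, with 47.2 to 58.3 TPM and 41.9 to 54.6 TPM over the 4 libraries. *Cbx2* (23.9 to 26.7 TPM) and *Phc3* (14.7 to 27 TPM) also overlapped. *Cbx2* was the higher of the pair in 3 of 4 libraries. *Cbx8*, at 10.2 to 15.4 TPM, overlapped with *Phc3* in range but lay below it in all 4 libraries. *Cbx7* was the lowest member, at 6.90 to 9.05 TPM, which is above 32.0% to 38.9% of the tested genes. For scale, *Bmi1* was at 126 TPM and the catalytic RING subunits *Rnf2* and *Ring1* at 62.6 and 39.1 TPM on average in NSC. These TPM values order genes within a library and were not compared between the groups except as shares, next. When the longest transcript replaced the union of exons as the length, *Phc3* lay above *Cbx2* in 3 of 4 libraries, where it had done so in 1 of 4, and the other places stayed.

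**Figure D1:**
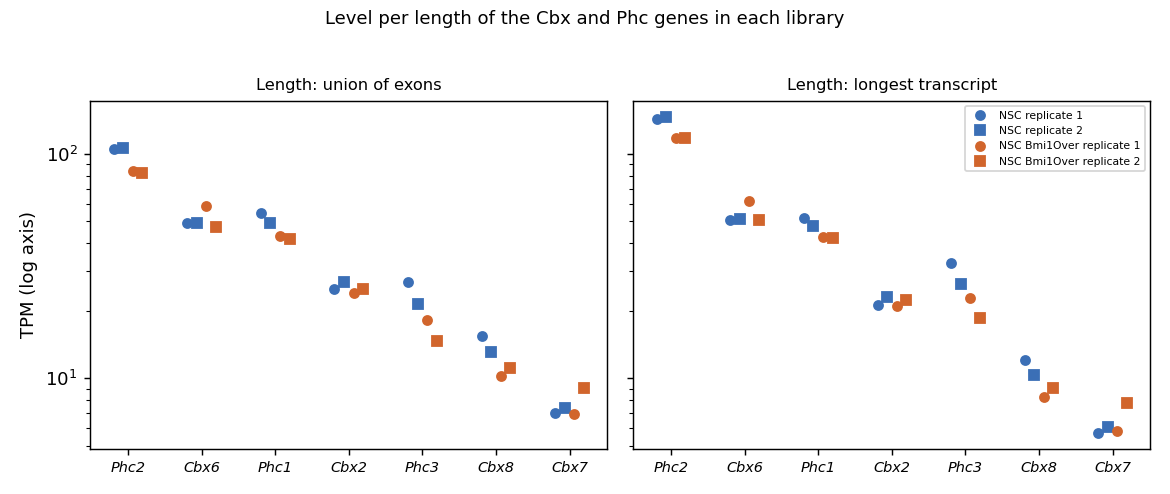
Level per length (TPM, log axis) of the 7 genes in each of the 4 libraries, with the union of all exons (left) or the longest transcript (right) as gene length. *Phc2* lies above and *Cbx7* below the other members on both scales, and only *Phc3* and *Cbx2* change places.

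The genes were then compared as shares of the summed TPM of the 4 *Cbx* or the 3 *Phc* genes in the same library. No scaling between libraries touches such shares, but they depend on the gene length used. They were computed with the union of exons alone. The *Cbx* sum lacks a further Polycomb *Cbx* gene, so these are shares of the 4 genes and not of the whole family. *Cbx6* took 51.0% and 50.9% in NSC and 58.7% and 51.1% in NSC Bmi1Over, so that one NSC Bmi1Over culture lay at the NSC level. *Cbx2* took 24.1% to 27.8% over the 4 libraries, with overlapping groups. *Cbx8* took 15.9% and 13.6% in NSC and 10.3% and 12% in NSC Bmi1Over. The *Cbx8* share was therefore lower in both NSC Bmi1Over cultures, by less than 2 percentage points between the nearest cultures. *Cbx7* took 6.94% to 9.80%, with overlapping groups. Among the *Phc* genes, *Phc2* took 56.4% to 60.2%, with overlapping groups. *Phc1* took 29.1% and 27.7% in NSC and 29.7% and 30.1% in NSC Bmi1Over, so its share was higher in both NSC Bmi1Over cultures by less than 1 percentage point between the nearest cultures. *Phc3* took 14.4% and 12.1% in NSC and 12.5% and 10.5% in NSC Bmi1Over, with overlapping groups. With 2 cultures per group, an exact permutation test cannot give a two-sided p below 0.333, and no test was run on the shares. Any share also changes when the other genes of its sum change. In CPM the groups did not overlap for 59% of all genes, and the matching rate for shares was not computed.

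With no covariate in the fit, no *Cbx* or *Phc* gene was called between NSC Bmi1Over and NSC. Of all 15521 genes tested with edgeR's quasi-likelihood test, 2.15% had a Benjamini-Hochberg adjusted p under 0.05. At an unadjusted p under 0.05 there was 1 of the 7, *Cbx6*, where 24.2% of all genes were below that value. DESeq2's Wald test also called 0 of the 7, and 11.2% of the 13414 genes to which it gave an adjusted p. The log2 fold changes of the 7 genes lay between -0.32 and 0.40 and their median was -0.05, with -0.01 over all tested genes. They were below 0 for 4 genes, as for 51.4% of all genes. In 6 of the 7 the cultures of the groups did not overlap in CPM, which was so for 59% of all genes. The 95% intervals below are for each gene alone and are not adjusted for the number of genes.

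**Figure D2:**
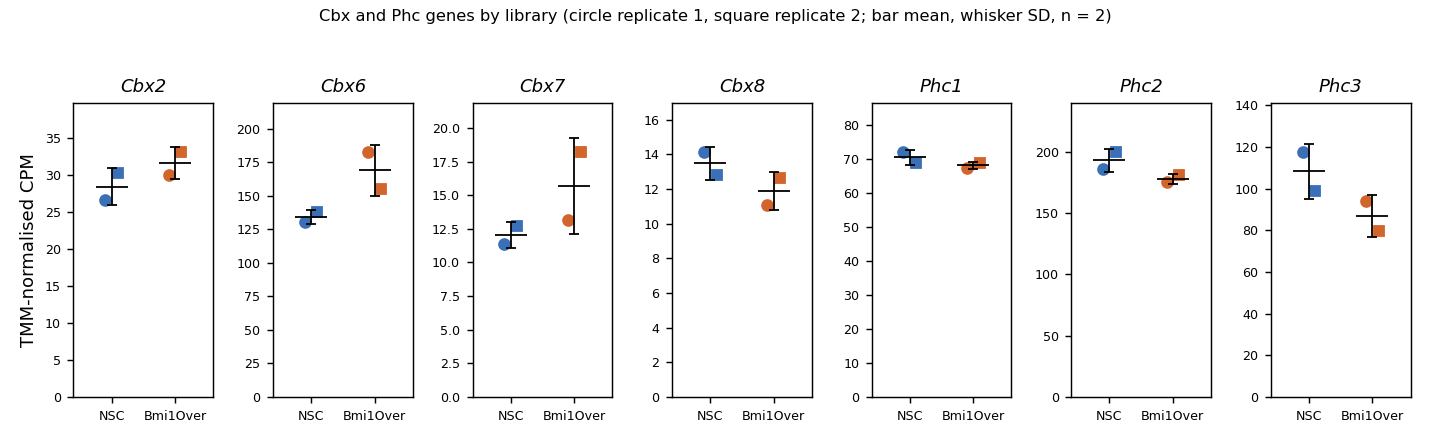
TMM-normalised CPM (linear axes from 0) of each gene in the 2 NSC and 2 NSC Bmi1Over cultures, with mean and SD. The groups overlap only for *Cbx2*, and *Cbx7* has its widest spread within NSC Bmi1Over, at 13.2 and 18.2 CPM.

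*Cbx2* (ENSMUSG00000025577, chromosome 11 of mm10, plus strand, 119022962 to 119031270) encodes the Cbx protein known for compacting nucleosomes and for its part in axial patterning and sex determination. It was counted with 841 and 764 reads in NSC and 526 and 1891 reads in NSC Bmi1Over, or 26.6 and 30.2 CPM against 30.0 and 33.1 CPM. The groups overlapped. On the log2 scale the difference was 0.15 with a standard error of 0.13, and the 95% interval of the fold ran from 0.901 to 1.38 (adjusted p = 0.491 from edgeR's quasi-likelihood test). The log2 difference moved to 0.07 without NSC replicate 1, 0.08 without NSC Bmi1Over replicate 2, 0.23 without NSC Bmi1Over replicate 1 and 0.25 without NSC replicate 2.

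*Cbx6* (ENSMUSG00000089715, chromosome 15, minus strand, 79823896 to 79834688) was counted with 4123 and 3491 reads in NSC and 3194 and 8868 reads in NSC Bmi1Over. Normalised, this was 131 and 138 CPM against 182 and 155 CPM. Both NSC Bmi1Over cultures lay above both NSC cultures. On the log2 scale the difference was 0.33 with a standard error of 0.14, and the 95% interval of the fold ran from 1.01 to 1.56 (adjusted p = 0.188 from edgeR's quasi-likelihood test). It was 0.21 without NSC Bmi1Over replicate 1 and 0.29 without NSC replicate 1. Without NSC replicate 2 it was 0.37, and without NSC Bmi1Over replicate 2 it was 0.44. Of its exon bases, 5.31% are shared with *Npcd*, a readthrough gene on the same strand, and STAR leaves out reads that fall on such bases.

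*Cbx7* (ENSMUSG00000053411, chromosome 15, minus strand, 79915807 to 79971119) encodes a Cbx protein known from embryonic stem cells and from repression of the *Ink4a/Arf* locus. It had 358 and 321 reads in NSC and 231 and 1041 reads in NSC Bmi1Over, or 11.3 and 12.7 CPM against 13.2 and 18.2 CPM. The groups did not overlap, but NSC Bmi1Over replicate 1 lay nearer to the NSC cultures than to the other culture of its group. On the log2 scale the difference was 0.40, the largest of the 7, with a standard error of 0.19, and the 95% interval of the fold ran from 0.975 to 1.79 (adjusted p = 0.239 from edgeR's quasi-likelihood test). This value rested on single cultures. Without NSC Bmi1Over replicate 2 it was 0.14, and without NSC Bmi1Over replicate 1 it was 0.61 and passed the threshold (adjusted p = 0.0465 from edgeR's quasi-likelihood test). That fit has 1 NSC Bmi1Over culture, which is assumed to vary like the NSC pair, and 13% of all tested genes passed in it. Of its exon bases, 1.54% overlap *Apobec3* on the other strand.

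*Cbx8* (ENSMUSG00000025578, chromosome 11, minus strand, 119036305 to 119040969) lies tail to tail with *Cbx2* and encodes another Cbx protein known to bind *Ink4a/Arf*. It had 446 and 324 reads in NSC and 194 and 722 reads in NSC Bmi1Over. This was 14.1 and 12.8 CPM against 11.1 and 12.6 CPM, so the nearest cultures of the groups differed by little. On the log2 scale the difference was -0.18 with a standard error of 0.17, and the 95% interval of the fold ran from 0.680 to 1.15 (adjusted p = 0.523 from edgeR's quasi-likelihood test). It ranged from -0.28 to -0.09 when single cultures were dropped.

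*Phc1* (ENSMUSG00000040669, chromosome 6, minus strand, 122317731 to 122340561) was the steadiest member. Its reads numbered 2275 and 1743 in NSC and 1181 and 3937 in NSC Bmi1Over. The normalised values were 72.1 and 68.9 CPM against 67.5 and 68.9 CPM, where the nearest cultures of the groups differ by less than the last digit printed, with a log2 fold change of -0.05 (standard error 0.12). The 95% interval of the fold ran from 0.804 to 1.16 (adjusted p = 0.817 from edgeR's quasi-likelihood test). The log2 fold change moved to -0.02 without NSC replicate 1, -0.03 without NSC Bmi1Over replicate 1 and -0.08 without NSC replicate 2.

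*Phc2* (ENSMUSG00000028796, chromosome 4, plus strand, 128654702 to 128752881), the main *Phc* gene of these cells, had 5875 and 5045 reads in NSC and 3065 and 10332 reads in NSC Bmi1Over. This was 186 and 199.6 CPM against 175 and 181 CPM. Both NSC Bmi1Over cultures lay below both NSC cultures, with a log2 fold change of -0.12 (standard error 0.13). The 95% interval of the fold ran from 0.752 to 1.13 (adjusted p = 0.596 from edgeR's quasi-likelihood test). The log2 fold change moved to -0.06 without NSC replicate 2, and to between -0.17 and -0.09 when another culture was dropped.

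*Phc3* (ENSMUSG00000037652, chromosome 3, minus strand, 30899371 to 30969415) had 3711 and 2505 reads in NSC and 1647 and 4548 reads in NSC Bmi1Over. The values of 118 and 99.1 CPM in NSC and 94.1 and 79.6 CPM in NSC Bmi1Over did not overlap, but the NSC cultures differed from each other by more than the nearest cultures of the groups did. The log2 fold change of -0.32 (standard error 0.14) was the largest downwards, and the 95% interval of the fold ran from 0.637 to 1.00 (adjusted p = 0.215 from edgeR's quasi-likelihood test). It moved to -0.19 without NSC replicate 1 and -0.21 without NSC Bmi1Over replicate 2. Without NSC replicate 2 it was -0.44, and it was also -0.44 without NSC Bmi1Over replicate 1.

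**Figure D3:**
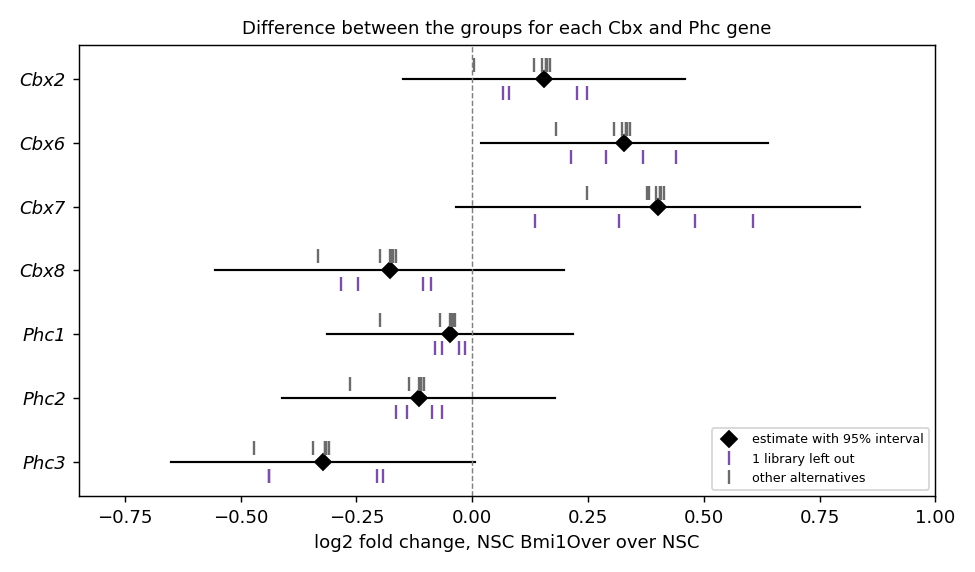
Log2 fold change of each gene with its 95% interval (diamonds and lines), with the values when 1 library is left out (purple) and under the other alternatives (grey). The 3 genes above 0 and the 4 below 0 keep their side in each alternative, and only the interval of *Cbx6* lies wholly on one side of 0.

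The choice of scaling moved all 7 values together. With library size alone in place of TMM, the median log2 fold change of all tested genes was -0.17. *Cbx2* was then at 0.00, *Cbx6* at 0.18, *Cbx7* at 0.25, *Cbx8* at -0.33, *Phc1* at -0.20, *Phc2* at -0.26 and *Phc3* at -0.47, and none was called. Relative to that shift, the order of the 7 genes did not change.

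The partners of the Cbx and Phc proteins were set beside them from lists of Polycomb genes. PRC1 (8 *Pcgf* and *Ring* genes and 10 other subunits) and PRC2 (12 genes) gave 30 tested genes. Of these, edgeR's quasi-likelihood test called 0, with 4 at an unadjusted p under 0.05. The shares over all tested genes were 2.15% and 24.2%. DESeq2 called 1 of the 30, where it called 11.2% of all genes to which it gave an adjusted p. The 1 called was *Phf1*, which encodes an accessory subunit of PRC2. *Phf1* had 16.4 and 28.5 CPM in NSC and 32.2 and 50.6 CPM in NSC Bmi1Over, with a log2 fold change of 0.90 (adjusted p = 0.103 from edgeR's quasi-likelihood test). The other value of that size was that of *Pcgf2*, a close paralog of *Bmi1*, at 0.81 (adjusted p = 0.145 from edgeR's quasi-likelihood test), with 6.24 and 7.95 CPM against 8.40 and 15.9 CPM. The median log2 fold change was -0.13 for the *Pcgf* and *Ring* genes, -0.05 for the other PRC1 subunits and -0.07 for PRC2, beside the -0.05 of the *Cbx* and *Phc* genes. *Cbx1*, *Cbx3* and *Cbx5*, which share the chromodomain but encode HP1 proteins that read H3K9 methylation, had log2 fold changes of -0.09, -0.31 and -0.30. None of the 3 was called by either tool, and 1, *Cbx3*, had an unadjusted p under 0.05. Of 6 relatives with MBT or SAM domains, 4 had enough reads to test and 0 were called by either tool, with *L3mbtl1* alone at an unadjusted p under 0.05 and the largest value, 0.91.

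**Figure D4:**
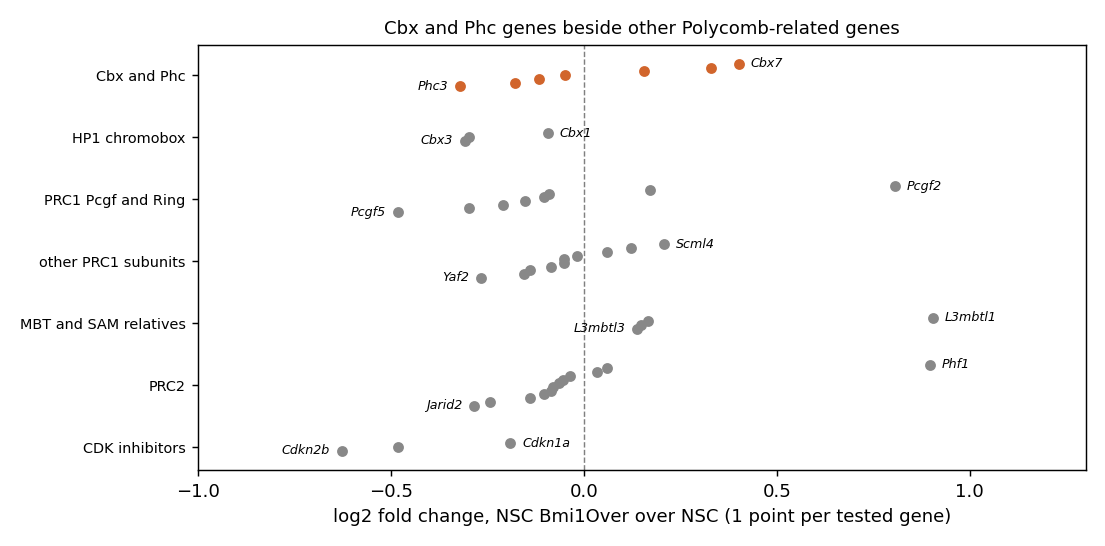
Log2 fold change of each tested gene (points) for the *Cbx* and *Phc* genes (orange) and for 6 lists of related genes (grey), with the lowest and highest gene of each list named. The *Cbx* and *Phc* genes span -0.32 to 0.40, inside the span of the *Pcgf* and *Ring* genes, -0.48 to 0.81.

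Among the members and 42 genes of these lists and of the CDK inhibitors, those tested were ranked by how close their pattern over the 4 libraries came to that of each member, as the root mean square difference of centred log2 CPM. *Auts2* and *Ring1* were nearest to *Cbx2*, at 0.030 and 0.037. *Kdm2b* was nearest to *Phc1*, at 0.022, and *L3mbtl2* to *Phc2*, at 0.045. *Yaf2* was nearest to *Phc3*, at 0.046, where the pattern of *Phc3* itself spread by 0.201. *Pcgf6* was nearest to *Cbx8*, at 0.049. *Scml4* was nearest to *Cbx6*, at 0.118, and *Ring1* to *Cbx7*, at 0.134. The patterns of the members themselves spread by 0.035 for *Phc1*, 0.070 for *Phc2*, 0.111 for *Cbx2*, 0.124 for *Cbx8*, 0.184 for *Cbx6* and 0.253 for *Cbx7* on the same measure.

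H3K27me3, the mark that Cbx proteins read, was called at the promoter of 1 of the 7 genes. Marked here means that a deposited peak came no farther than 5 kb from a transcription start site (TSS) of the gene. *Cbx2* was marked in NSC and in NSC Bmi1Over. The background was 8.89% of 22028 protein-coding genes in NSC and 4.44% in NSC Bmi1Over. With 1 library per condition, the lists were not compared by a test. None of the other 6 genes had a peak near a TSS or over the gene in either list. The nearest peak lay 18.2 kb from a TSS of *Cbx8* in NSC and 18.7 kb in NSC Bmi1Over, and it was the peak at *Cbx2*. It lay 41.1 and 42.3 kb from *Cbx7*, and more than 140 kb from *Cbx6*, *Phc1*, *Phc2* and *Phc3*.

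In NSC, 2 peaks stood upstream of *Cbx2*. The wider, of 2215 bp at chr11:119020406-119022620, was enriched 5.65-fold over the background of MACS2 with a −log10 q of 6.08, and ended 342 bp before the first TSS. It was longer than 93.8% of all NSC peaks. The other, of 439 bp at chr11:119019756-119020194, was enriched 3.52-fold, the lowest value in the NSC list. In NSC Bmi1Over, the wider peak was 1276 bp at chr11:119020874-119022149, enriched 4.82-fold with a −log10 q of 3.14, and the other 345 bp at chr11:119020200-119020544, enriched 4.94-fold with a −log10 q of 3.33. The wider NSC Bmi1Over peak lay wholly inside the wider NSC peak and covered 57.6% of it. The peaks summed to 2654 bp in NSC and 1621 bp in NSC Bmi1Over. Per the study's methods, the deepest NSC library had more aligned ChIPSeq reads than either NSC Bmi1Over library, and the weakest libraries were set aside. The part of depth in the width and number of the peaks was not tested. When peaks below 5-fold enrichment were dropped, *Cbx2* stayed marked in NSC and was no longer marked in NSC Bmi1Over. Its NSC Bmi1Over peaks, at 4.82- and 4.94-fold, lay just under that cut. Within their list they were above 51.3% and 57.5% of the peaks, and the wider NSC peak was above 94.6% of its own. The part of depth in fold enrichment was not tested either.

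**Figure D5:**
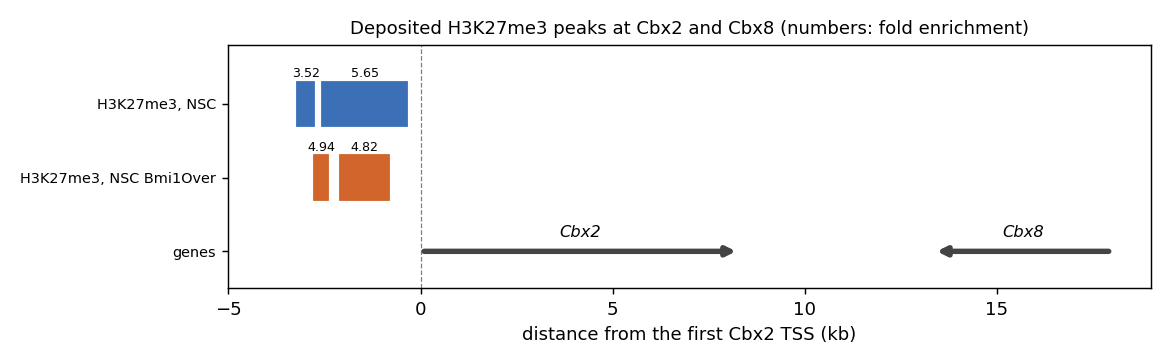
Deposited H3K27me3 peaks of NSC (blue) and NSC Bmi1Over (orange) against the distance from the first *Cbx2* TSS in kb, with their fold enrichments, above the spans of *Cbx2* and *Cbx8* (arrows give the direction of transcription). The peaks of both lists stay upstream of *Cbx2*, and none reaches *Cbx8*.

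The 2 stretches of 300 bases printed here are the ends of the wider *Cbx2* peak that face the gene, one in the part called in both lists (chr11:119021850-119022149) and one in the part called in NSC only (chr11:119022321-119022620). Both are read 5′ to 3′ on the plus strand of mm10, and CG dinucleotides, which CXXC proteins such as Kdm2b recognise, are in capitals.
Both lists: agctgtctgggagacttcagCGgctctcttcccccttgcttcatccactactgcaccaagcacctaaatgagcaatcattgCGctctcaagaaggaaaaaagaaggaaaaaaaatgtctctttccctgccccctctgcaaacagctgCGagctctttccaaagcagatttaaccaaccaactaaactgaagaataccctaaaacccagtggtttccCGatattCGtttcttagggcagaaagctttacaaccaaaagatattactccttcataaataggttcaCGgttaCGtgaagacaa
NSC only: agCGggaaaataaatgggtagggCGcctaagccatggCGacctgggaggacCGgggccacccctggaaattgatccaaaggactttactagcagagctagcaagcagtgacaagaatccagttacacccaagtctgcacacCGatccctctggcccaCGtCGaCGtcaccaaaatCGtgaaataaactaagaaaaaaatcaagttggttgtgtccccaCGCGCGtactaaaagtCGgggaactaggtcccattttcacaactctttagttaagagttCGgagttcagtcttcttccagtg

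The stretch shared by both lists held 7 CG dinucleotides and was 44% GC, and the stretch called in NSC only held 14 and was 49.7% GC. Of the 32851 RefSeq promoters of the same length, 52.1% held at least 7 and 36.3% at least 14. The RefSeq table held 8 promoters of 6 of the genes and none of *Cbx2*. Those of the unmarked *Cbx8*, *Cbx6* and *Cbx7* held 24, 31 and 33 CG dinucleotides, and 20.0%, 10.6% and 8.56% of all promoters held as many. The *Phc1* promoter held 9, that of *Phc3* 15, and the 3 of *Phc2* between 2 and 45. Promoters rich in CG were thus found among the genes without the mark. The 2 *Cbx2* stretches are not its promoter, as they end 813 and 342 bp before its first TSS. Their counts are therefore not like for like with those of the promoters. CG content at the *Cbx2* TSS was not computed.

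*Cbx2*, though marked, was also read in all RNASeq libraries. Per length, its level was above that of 90.2% and 91.0% of the protein-coding genes marked in NSC in the 2 NSC cultures, and of 93.1% and 93.6% of those marked in NSC Bmi1Over in the 2 NSC Bmi1Over cultures. It was also above 68.4% to 73.3% of the unmarked genes. Among the 30 genes of PRC1 and PRC2, *Pcgf1*, *Pcgf2*, *Bcor*, *Scml2* and *Epop* carried the mark in NSC, and *Pcgf2* and *Epop* did so in NSC Bmi1Over.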

How the data were processed

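Per the labels and the study's methods, reads were trimmed by the authors using Trim Galore, who then aligned RNASeq reads to mm10 with STAR and deposited raw read counts per gene. ChIPSeq reads were aligned with Bowtie2 2.3.4, 1 library per condition was kept, and broad peaks were called per library with MACS2. For each peak the authors deposited a fold enrichment (a ratio to the background), a −log10 p-value and a −log10 q-value, and a display score, not used here. The STAR version and annotation are not given in the sources used here.

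Unstranded counts (column 2), with 65.9% to 72.2% of all reads on genes and the lines that name no gene left out, were filtered with edgeR's filterByExpr, normalised by TMM and fitted with edgeR 4.0.16 (R 4.3.3) over 15521 genes, 4 libraries and no covariate, with the test and normalisation of the study's methods but not its NOISeq quality and biotype filter, and with the NSC libraries alone. Intervals come from the quasi-likelihood standard error. DESeq2 1.42.0 was an alternative. The steps were tested on simulated data. TPM used GENCODE vM21 exon lengths. Of 50686 identifiers, 50462 matched. GENCODE, the RefSeq genome and the peaks share the build. Sequences and promoters are RefSeq GRCm38.p6. The precision is that of 2 cultures per group with a biological coefficient of variation of 12.9%; the peak files hold no read totals.

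The 7 genes, the lists and the tests were chosen with earlier results of these data known. All members are named. In each list of Polycomb genes, the called genes and at most the largest value in each direction are named for their difference between groups, with the nearest pattern of each member, the genes with a peak near a TSS, and of the markers the called ones. *Rnf2* and *Ring1* were added for scale. A further *Cbx* gene is not reported here.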

Additional observations from a re-analysis of the deposited data

How the results depend on the processing

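Of 84 values (7 genes under 12 alternatives), 81 kept their direction and their side of the threshold, 3 kept their direction and passed the threshold, and 0 changed direction. The number of genes called, 334, was 1496 with DESeq2, 537 with library size alone, 2356 with no filter beyond 1 read in any library, 212 with at least 1 CPM in every group mean, and 130 to 2013 when single cultures were dropped, where the lone culture of a group is assumed to vary like the other group. The cause was not tested. Of the 7 genes, 0 to 1 were called with a culture left out. The lowest number of genes came without NSC Bmi1Over replicate 2, and 174 were called without NSC replicate 1, 1532 without NSC replicate 2 and 2013 without NSC Bmi1Over replicate 1. The share of called genes that were higher was 94.3%, and 64.4% with library size alone, 87.0% with DESeq2 and 80.3% without the filter. No source used here says that same-numbered cultures share a day or batch, and deviations of same-numbered libraries correlated at r = 0.17 over genes. With the replicate number as a block, 3459 genes were called, 22.3% of those tested, and 2 of the 7, *Cbx6* (0.32, adjusted p = 0.0373) and *Phc3* (-0.32, adjusted p = 0.0261, edgeR's quasi-likelihood test). The highest mean TPM of the 7 genes in NSC was 14.7 times the lowest, and 24.6 times with the longest transcript as length. The count of genes marked in NSC Bmi1Over was 1, and 0 when peaks below 5-fold enrichment were dropped. It stayed 1 with a window of 1 kb, with a −log10 q of at least 3 and with peaks of at least 1000 bp, as the count in NSC did under all 4.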

Other observations

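*Cdkn2a*, whose *Ink4a/Arf* products are known to be repressed by Cbx7, Cbx8 and Bmi1, carried H3K27me3 near a TSS in the NSC and the NSC Bmi1Over list. It was counted at 28.1 and 25.1 CPM in NSC and at 21.4 and 17.0 CPM in NSC Bmi1Over, with a log2 fold change of -0.48 (adjusted p = 0.116 from edgeR's quasi-likelihood test). Its neighbour *Cdkn2b*, without a peak, had 8.21 and 6.29 CPM in NSC and 4.68 and 4.71 CPM in NSC Bmi1Over, with a log2 fold change of -0.63 (adjusted p = 0.133 from the same test of edgeR). *Cdkn1a* stood at -0.19. None of the 3 was called by edgeR's test or by DESeq2. The groups did not overlap in the 3 genes, which was so for 59% of all genes, and 2 of the 3 had an unadjusted p under 0.05, as did 24.2% of all genes.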
